A study of Mus musculus with 2 samples.

Results

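The genes described here are 9 regulators that set or mark the epithelial state: the Grainyhead-like factors Grhl1, Grhl2 and Grhl3, the zinc-finger factors Ovol1 and Ovol2, the RNA-binding proteins Esrp1, Esrp2 and Rbm47, and the ETS factor Elf3. They were chosen by gene symbol, and all 9 were found among the 32285 genes measured. Single-cell RNA sequencing was done on somitic gastruloids, in which mouse embryonic stem cells aggregate and differentiate into tissues of the early embryo, in 1 library without treatment and 1 library given the small molecule dTAG-13. Both libraries came from the E14 triple reporter line and carried an HA-FKBP12F36V degron tag on the endogenous Zeb2 protein, so the control also holds the tagged allele. Both were seeded with 300 cells per aggregate, given 3 µM CHIR99021, a WNT pathway activator, from 48 h and embedded in 10% Matrigel at 96 h. The treated pool received dTAG-13, which directs FKBP12F36V-tagged protein to degradation, at a dose of 100 nM, first at 72 h and again at 96 h. Each library is a pool of about 32 gastruloids, from which 10000 live cells were loaded. The time of harvest was not given in the texts used here. The control is untreated in its sample label, whereas the series text names DMSO.

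Grainyhead-like factors bind enhancers of junction and keratin genes and keep them open, and OVOL factors repress genes of the mesenchymal state. ESRP1 and ESRP2 direct the epithelial pattern of alternative splicing, and RBM47 is another RNA-binding protein linked to it. ELF3 is an ETS factor of simple epithelia. ZEB2 is a zinc-finger repressor that binds E-boxes, in particular the sequence CACCTG, and several of these genes are known from epithelial cells to be repressed by ZEB factors and to repress them in return.

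The promoters are shown because CACCTG is the sequence that ZEB factors bind. RefSeq windows of 300 bases, from 250 before to 50 after the annotated start (GRCm38.p6), were at hand for 5 of the 9 genes, 8 windows in all. These genes were Grhl1, Grhl3, Ovol2, Rbm47 and Elf3. CACCTG on either strand (CACCTG or CAGGTG) was found in 2 of these 8 windows, that of Grhl3 with 2 matches and that of Elf3 with 1. It was found in 20.2% of all 32851 windows of this length. At least 2 matches were found in 2.88% of all windows. Both sequences are given 5′ to 3′ on the minus strand of the gene, with the matches in capitals, and a match describes the letters only. The Grhl3 window is chr4:135573583-135573882 and its matches begin at bases 232 and 259. The Elf3 window is chr1:135258423-135258722 and its match begins at base 111.
Grhl3: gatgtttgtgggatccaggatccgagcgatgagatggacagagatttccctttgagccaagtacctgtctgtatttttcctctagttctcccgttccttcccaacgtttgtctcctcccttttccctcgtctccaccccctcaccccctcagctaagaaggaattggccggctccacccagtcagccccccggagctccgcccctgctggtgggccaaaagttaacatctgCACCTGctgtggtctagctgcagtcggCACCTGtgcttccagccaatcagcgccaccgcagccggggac
Elf3: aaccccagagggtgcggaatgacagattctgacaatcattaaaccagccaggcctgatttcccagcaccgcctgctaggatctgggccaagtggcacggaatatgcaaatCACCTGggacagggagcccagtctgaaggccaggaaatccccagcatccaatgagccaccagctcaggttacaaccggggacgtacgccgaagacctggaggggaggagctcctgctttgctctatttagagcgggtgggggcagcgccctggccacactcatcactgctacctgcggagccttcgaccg
The windows of Grhl1, Ovol2 and Rbm47 held no match.

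The kept cells numbered 6231 in the untreated and 6688 in the dTAG-13 library, with medians of 20073 and 20207 unique molecular identifiers (UMIs, counts of single RNA molecules) per cell and 14 cell barcodes in common. With 1 library per condition, no difference below has a replicate check. Intervals are 95% exact intervals that cover counting error only. Levels are UMIs of a gene per 1000000 UMIs summed over cells (CPM), and since each molecule is counted from its 3′ end they do not depend on gene length. The Zeb2 transcript, at 67.9 CPM untreated and 94.6 CPM with dTAG-13, is no check of the labels, since the degrader acts on protein.

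Lineages were read from cells with at least 2 UMIs of a marker gene, and a cell can be positive for several. Meox1-positive cells (913 untreated and 626 dTAG-13) had high levels of the somite genes Tcf15, at 300.2 and 211.5 CPM, and Aldh1a2. Tbx6-positive cells (507 and 179) had the presomitic genes Hes7 and Dll1, but Msgn1 only at 6.21 and 3.1 CPM. T-positive cells (1387 and 959) carried Fgf8 and Cdx2. Sox2-positive cells (2989 and 3047) are not called neural, since the neural genes gave an uneven picture. Untreated, Sox1 (11.5 CPM against 2.97 in the other cells), Sox3 (26.2 against 10.1), Pax6 (6.29 against 1.17) and Hes5 (52.8 against 40.3) were higher in this gate, and Nkx6-1 stood at 1.33 against 1.20 CPM. With dTAG-13 the gate held Sox1 at 6.37 against 3.86 CPM, Sox3 at 18.1 against 13.9, Pax6 at 2.02 against 1.08, Hes5 at 13.3 against 12.6 and Nkx6-1 at 1.23 against 1.20. Sfn-positive cells (319 and 1338) had Krt8, Krt18, Dlx5 and Tfap2c, but the surface ectoderm factors Tfap2a and Trp63 were near 0, at 1.49 and 2.2 CPM and at 0.114 and 0.361 CPM. Sox17-positive cells (110 and 164) carried the endoderm genes Trh, Foxa2 and Cer1. Of the endothelial genes, Pecam1 was lower in them than in other cells, at 0.815 and 0.446 CPM, whereas Cdh5 was higher, at 6.93 against 0.683 CPM untreated and 0.891 against 0.326 with dTAG-13. Kdr stood at 15.1 against 6 CPM untreated and 4.68 against 4.35 with dTAG-13. Zfp42-positive cells (524 and 765) carried Dppa5a, Nanog and Esrrb, genes of naive pluripotency. Cells below 2 UMIs for all 7 markers numbered 1254 and 1768. Overlap was large: 72.1% of untreated and 54.5% of dTAG-13 Sfn-positive cells were also Sox2-positive, as were 86.6% and 86.1% of Zfp42-positive cells.

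Over whole libraries, 8 of the 9 regulators were at least 1.5-fold higher in the dTAG-13 library, on the scale of log2(CPM + 1), and 0 were 1.5-fold lower. Of the 19470 genes with at least 10 UMIs, 2.32% were that much higher and 0.832% that much lower. The median log2 ratio was 1.00 over the 9 regulators and 0.02 over all genes. Without the added 1 CPM, the interval of the fold lay wholly above 1.5 for the same number, 8 of 9. With 5 CPM added in place of 1, which draws low genes towards no change, 3 of 9 passed. These sums mix the number of cells of a kind with the level per cell, and Sfn-positive cells made up 5.12% of untreated (4.59 to 5.70) and 20.0% of dTAG-13 cells (19.1 to 21.0). Among cells outside the Sfn gate, a group chosen after seeing the data, 7 of 9 passed 1.5-fold. Sfn was not absent from them, at 2.78 CPM untreated and 7.71 CPM with dTAG-13. Cells with exactly 1 Sfn UMI numbered 365 and 891, and their part in the folds was not tested. The share of all genes was not counted with 5 CPM added, for intervals of the fold, or in this group. Esrp1 there stood at 11.1 and 31.1 CPM, 2.79-fold higher with dTAG-13 (2.63 to 2.97), and Grhl2 at 3.45 and 9.42 CPM, 2.73-fold higher (2.44 to 3.05).

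Of the Grainyhead-like factors, Grhl2 (ENSMUSG00000022286, chromosome 15, 37233036 to 37363569, plus strand, GRCm38), which controls Cdh1 and claudin genes in many epithelia, was measured at 4.63 CPM without the degrader (4.28 to 5.00) and at 13.9 CPM under dTAG-13 (13.3 to 14.5), 3.00-fold higher (2.75 to 3.28). Grhl3 (ENSMUSG00000037188, chromosome 4, 135541888 to 135573630, minus strand), known for its part in surface ectoderm and neural tube closure, stood at 10.7 CPM (10.2 to 11.3) and 22.4 CPM (21.7 to 23.2), 2.09-fold higher (1.97 to 2.23). Outside the Sfn gate Grhl3 was 1.60-fold higher (1.49 to 1.73). Grhl1 (ENSMUSG00000020656, chromosome 12, 24572283 to 24617391, plus strand), an epidermal desmosome regulator, was low in both libraries, at 1.05 CPM (0.887 to 1.23) and 1.39 CPM (1.21 to 1.59), and was the member that did not pass 1.5-fold, at 1.33-fold (1.07 to 1.65).

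Both OVOL genes were higher with dTAG-13 from low levels. Ovol1 (ENSMUSG00000024922, chromosome 19, 5549136 to 5560646, minus strand) was counted in 120 untreated and 471 dTAG-13 UMIs, or 0.857 and 3.11 CPM, 3.63-fold higher (2.96 to 4.47). Ovol2 (ENSMUSG00000037279, chromosome 2, 144305175 to 144332146, minus strand), which represses Zeb genes in epithelia, was counted in 208 and 581 UMIs, or 1.49 and 3.83 CPM, 2.58-fold higher (2.20 to 3.04). These low counts make their folds less precise than those of Esrp1 and Grhl3.

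Of the RNA-binding proteins, Esrp1 (ENSMUSG00000040728, chromosome 4, 11331933 to 11386783, minus strand) had the most UMIs of the 9 genes in both libraries, 2013 untreated and 6549 with dTAG-13. Its level was 14.4 CPM (13.8 to 15.0) and 43.2 CPM (42.2 to 44.3), 3.00-fold higher (2.86 to 3.16). Its paralogue Esrp2 (ENSMUSG00000084128, chromosome 8, 106130319 to 106136974, minus strand) stood at 1.14 CPM (0.973 to 1.33) and 3.99 CPM (3.68 to 4.32), 3.49-fold higher (2.93 to 4.18). Rbm47 (ENSMUSG00000070780, chromosome 5, 66016549 to 66173118, minus strand) stood at 1.65 CPM (1.44 to 1.88) and 3.39 CPM (3.1 to 3.70), 2.06-fold higher (1.76 to 2.41). Elf3 (ENSMUSG00000003051, chromosome 1, 135253575 to 135258568, minus strand) had the smallest fold of the 8 genes past the threshold, at 4.59 CPM (4.24 to 4.95) and 7.76 CPM (7.33 to 8.22), 1.69-fold higher (1.54 to 1.87).

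**Figure D1:**
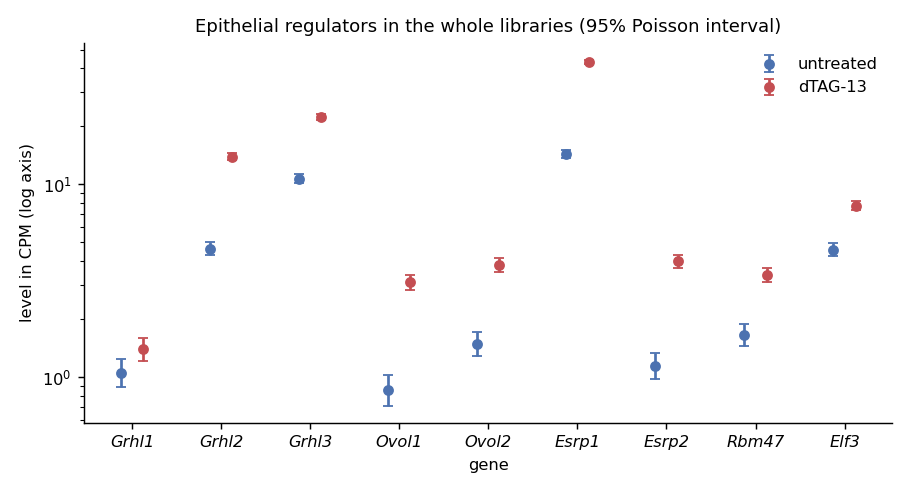
Level of each regulator in CPM (log axis) in the untreated (blue) and dTAG-13 (red) library, with 95% Poisson intervals that cover counting error only. The intervals of the libraries lie apart for 8 genes, from Elf3 (4.59 and 7.76) to Esrp1 (14.4 and 43.2), and overlap for Grhl1.

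The share of cells with at least 1 UMI was compared after thinning each cell to 5000 UMIs, which left out 87 untreated and 81 dTAG-13 cells below that depth. Esrp1 was found in 6.33% of untreated (5.74 to 6.97) and 18.4% of dTAG-13 cells (17.5 to 19.4). Grhl3 was found in 4.62% (4.11 to 5.18) and 9.41% (8.72 to 10.1), Grhl2 in 1.89% (1.56 to 2.26) and 6.72% (6.13 to 7.35), and Elf3 in 2.13% (1.79 to 2.53) and 3.89% (3.44 to 4.38). Each of the other 5 genes was found in under 2% of thinned cells in either library. Without thinning the Esrp1 shares were 18.8% and 46.3%. Meox1-positive cells serve as the cells that should lack these genes. There Esrp1 was found in 1 of 906 untreated cells (0.110%) and 18 of 624 dTAG-13 cells (2.88%), at median depths before thinning of 20926 and 21828 UMIs. Grhl1 and Ovol1 were found in 0 of these cells in both libraries, which allows shares of cells with a UMI at this depth of up to 0.331% untreated and 0.481% with dTAG-13, taking 3 cells as the limit of a count of 0, or 0.406% and 0.589% by the Clopper-Pearson interval.

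The regulators fell into different lineages. The highest shares of Esrp1, Grhl2, Grhl3, Ovol1 and Esrp2 were in Sfn-positive cells in both libraries. Esrp1 was found in 23.2% of untreated (18.7 to 28.2) and 35.1% of dTAG-13 (32.5 to 37.7) Sfn-positive cells, with median depths of 24212 and 22144 UMIs before thinning. The next gate for Esrp1 was Zfp42 in the untreated library, at 11.1% (8.53 to 14.1), and Sox2 in the dTAG-13 library, at 20.0% (18.6 to 21.5), with intervals apart from the Sfn gate in both. Grhl3 was found in 19.4% (15.2 to 24.2) and 22.1% (19.9 to 24.4) of Sfn-positive cells, also apart from the next gate, Sox2, at 6.1% (5.27 to 7.02) and 11.2% (10.1 to 12.4). For Grhl2 the untreated Sfn and Zfp42 gates could not be told apart, at 9.09% (6.17 to 12.8) and 7.65% (5.52 to 10.3), while with dTAG-13 the Sfn gate was higher, at 15.2% (13.3 to 17.3) against 7.73% (5.94 to 9.86). For Ovol1 and Esrp2 the Sfn gate stood apart from the next gate in the dTAG-13 library, at 3.90% and 5.25%, and not in the untreated library, at 2.51% and 3.45%.

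Ovol2, Rbm47 and Elf3 did not lead in Sfn-positive cells. Ovol2 was highest in Sox17-positive cells, at 6.36% untreated (2.60 to 12.7) and 8.54% with dTAG-13 (4.75 to 13.9). The next gate stood at 1.53% (Zfp42, untreated) and 2.33% (Sfn, dTAG-13), and only in the dTAG-13 library were the intervals apart. At 10000 UMIs per cell they lay apart in the untreated library too, at 14.8% (8.71 to 22.9) against 3.09% (1.78 to 4.97) for Zfp42. With gates at 4 UMIs they overlapped in both libraries. Rbm47 was highest in Sox17-positive cells with dTAG-13, at 11.0% (6.64 to 16.8), above the 4.85% (3.44 to 6.62) of Zfp42-positive cells. Untreated, the Rbm47 order of these gates was the other way, at 5.16% in Zfp42-positive and 3.64% in Sox17-positive cells, with overlapping intervals. That untreated order changed with depth. At 10000 UMIs per cell and without thinning the Sox17 gate led for Rbm47, also with overlapping intervals. The shares without thinning were 26.36% in Sox17-positive and 19.08% in Zfp42-positive cells. Elf3 was highest in Zfp42-positive cells, at 11.1% (8.53 to 14.1) and 11.5% (9.35 to 14.0), followed by Sfn-positive cells at 9.40% (6.44 to 13.2) and 7.95% (6.56 to 9.54), and these gates overlapped in both libraries. The order of these gates for Elf3 changed with the gate limit: at 1 UMI the untreated Sfn gate led, at 7.95% against 7.34%. In dTAG-13 cells positive for 1 marker alone, Elf3 stood at 7.95% (5.76 to 10.6) for Sfn and 3.92% (0.479 to 13.5) for Zfp42. Untreated, those shares were 9.52% (3.58 to 19.6) and 12.5% (3.51 to 29.0). Grhl1 was rare in every gate, at most 2.49% in untreated Zfp42-positive cells.

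**Figure D2:**
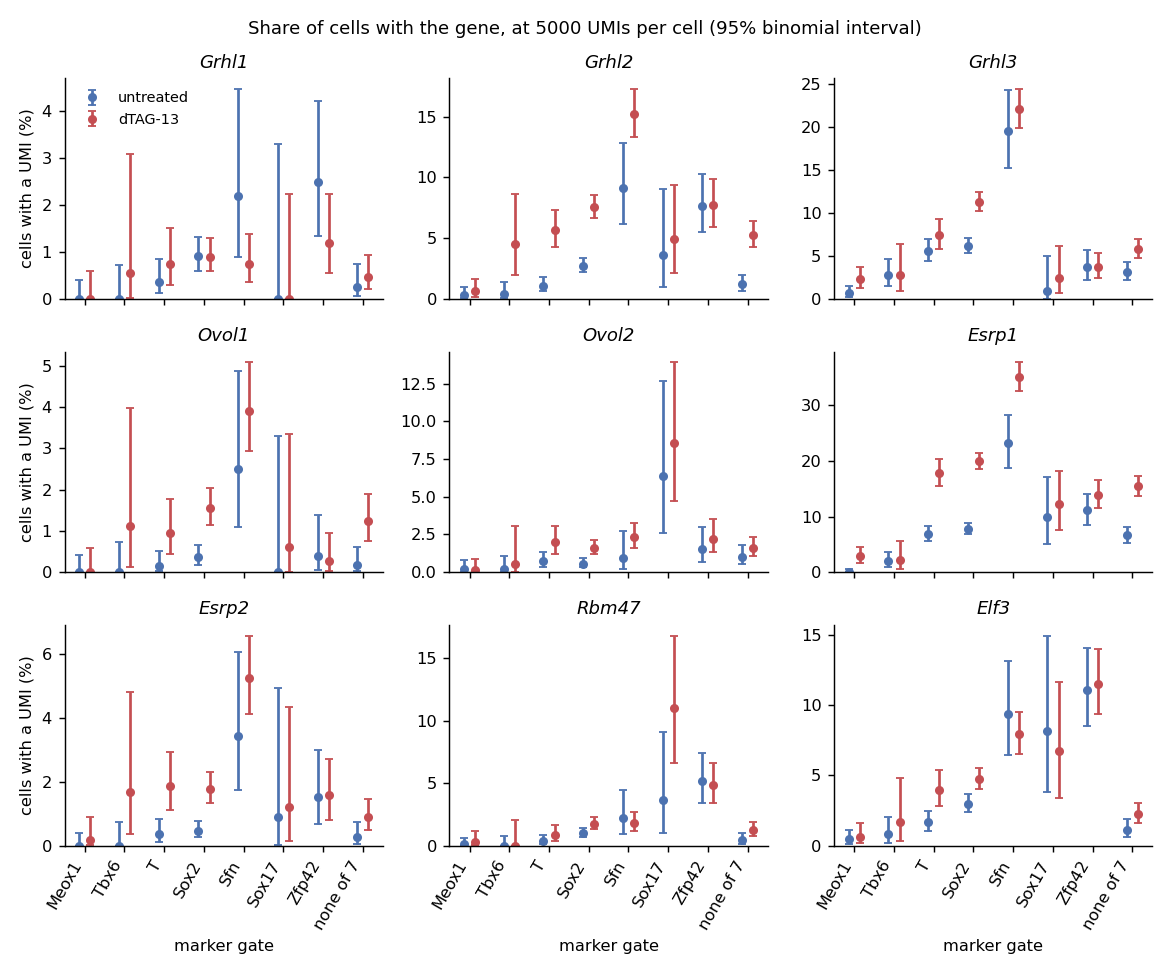
Share of cells (percent) with at least 1 UMI of each regulator, after thinning to 5000 UMIs per cell, in the cells of each marker gate and in cells below all 7 gates. Points are libraries (blue untreated, red dTAG-13) and bars are 95% binomial intervals that cover counting error only. Esrp1 and Grhl3 peak in the Sfn gate. Ovol2 is highest in the Sox17 gate, overlapping with the Zfp42 gate untreated. Elf3 is highest in the Zfp42 gate (11.1% and 11.5%), with intervals that overlap those of the Sfn gate.

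The same division appears in where each gene's molecules lie. Of all untreated Rbm47 UMIs, 66.7% came from Zfp42-positive cells, which held 10.5% of all UMIs, and 16.0% came from Sox17-positive cells, which held 1.75%. Of Esrp1 UMIs, 27.4% untreated and 45.2% with dTAG-13 came from Sfn-positive cells, which held 6.25% and 23.7% of all UMIs.

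Within Sox2-positive cells, 7 of 9 regulators were at least 1.5-fold higher with dTAG-13 and 0 lower. Of all genes, 2.57% were that much higher and 1.08% lower. Calls in this and the other gates are on the scale of log2(CPM + 1), which draws low genes towards no change. Esrp1 stood at 17.4 and 45.6 CPM, 2.61-fold higher (2.45 to 2.78), Grhl2 at 6.09 and 15.9 CPM, 2.60-fold higher (2.34 to 2.90), and Grhl3 at 13.1 and 25.5 CPM, 1.96-fold higher (1.81 to 2.11). Many of these cells also carry Sfn or Zfp42. Cells positive for Sox2 and below 2 UMIs for each of the other 6 markers numbered 1786 untreated and 1488 with dTAG-13. They can still hold 1 UMI of another marker. Among them the difference was at least as large for Esrp1, at 12.4 and 42.8 CPM or 3.45-fold (3.11 to 3.82), and for Grhl2, at 2.88 and 11.3 CPM or 3.91-fold (3.17 to 4.85). Grhl3 there stood at 12.5 and 24.8 CPM, 1.98-fold higher (1.77 to 2.22). Rbm47 was counted in 3 untreated and 45 dTAG-13 UMIs in these cells, a ratio of 18.7 with a wide interval (6.01 to 94.1). The Zeb2 transcript in the same cells was 93.0 and 143 CPM.

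In T-positive cells 7 of 9 regulators were at least 1.5-fold higher and 0 lower (4.93% of all genes higher and 1.05% lower), with Grhl2 at 3.23 and 11.1 CPM, 3.45-fold higher (2.75 to 4.35), and Esrp1 at 14.8 and 38.2 CPM, 2.59-fold higher (2.32 to 2.89). Grhl3 was 1.37-fold higher there (1.19 to 1.57) and did not pass. Markers of other cell types moved with the regulators in this gate: Trh stood at 28.4 and 84.1 CPM (23.8% and 57.5% of the whole library), Dppa5a at 60.6 and 151 CPM (14.3% and 31.3%), and the notochord genes Foxa2 at 12.3 and 33.0 CPM and Shh at 2.64 and 7.32 CPM. Among cells positive for T alone (596 and 458), Dppa5a stood at 35.2 and 41.5 CPM and Trh at 25 and 75 CPM. Of the 9 regulators, 5 passed upward and 0 downward in these cells, where the share of all genes was not counted. Esrp1 there was 2.60-fold higher (2.11 to 3.22) and Grhl2 2.68-fold higher (1.66 to 4.42). The direction of Grhl3 turned in these cells, at 10.2 and 8.5 CPM, a ratio of 0.833 (0.615 to 1.12), so that no difference was detectable.

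In cells below all gates 7 of 9 were higher and 0 lower (2.67% and 1.39% of all genes), and the interval of the fold lay wholly above 1.5 for 5, with Esrp1 at 12.0 and 35.5 CPM, 2.96-fold higher (2.58 to 3.40), and Grhl2 at 2.42 and 10.2 CPM, 4.21-fold higher (3.13 to 5.75).

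In the mesodermal gates the regulators were at low levels. In Meox1-positive cells, 2 of the 8 regulators with at least 10 UMIs were 1.5-fold higher and 0 lower, against 2.53% of all genes higher and 0.939% lower. These were Esrp1, at 2.55 and 9.35 CPM, 3.66-fold higher (2.69 to 5.05), and Grhl2, at 1.03 and 3.18 CPM, 3.09-fold higher (1.86 to 5.27). These levels were 17.7% and 21.6% of the whole library for Esrp1, beside 22.7% and 24.7% for Trh, an endoderm gene, and 11.7% and 16.6% for the pluripotency gene Dppa5a; the part of stray RNA or doublets in them was not tested. Among cells positive for Meox1 alone (691 and 442), where 4 regulators had 10 UMIs, Esrp1 came to 3 and 18 UMIs, a ratio of 8.96 (2.62 to 47.5), and each other regulator to at most 8 UMIs in either library. Without the added 1 CPM, folds above 1.5 were also seen in the Meox1 gate for Ovol1 at 2.45 (0.832 to 8.08) and Rbm47 at 2.31 (1.05 to 5.38). Esrp2 stood at 1.51 (0.516 to 4.49) and Elf3 at 1.51 (0.830 to 2.78), and each of these intervals reaches below 1.5. Without doublet removal 7 regulators passed in the Meox1 gate, a setting for which the share of all genes was not counted.

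In Tbx6-positive cells 6 of the 7 regulators with at least 10 UMIs were 1.5-fold higher and 0 lower, against 5.46% of all genes higher and 3.1% lower, and the interval of the fold lay wholly above 1.5 for 4. Esrp1 stood at 5.00 and 17.2 CPM, 3.44-fold higher (2.48 to 4.80), and Grhl2 at 1.45 and 6.36 CPM, 4.38-fold higher (2.43 to 8.18). The pluripotency gene Dppa5a moved with them in this gate, from 4.95% of its whole-library level untreated to 23.9% with dTAG-13, and its part in the result was not tested. Of dTAG-13 Tbx6-positive cells 67.0% were positive for another marker. Cells positive for Tbx6 alone (207 and 59) were too few to tell: only Grhl3 reached 10 UMIs there, at 14 and 7 UMIs or 1.59-fold (0.543 to 4.21), and Esrp1 came to 3 and 2 UMIs. After thinning 1 of the regulators passed in the Tbx6 gate, and the share of all genes was not counted at that depth.

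In the Sfn, Zfp42 and Sox17 gates fewer regulators passed 1.5-fold than in the groups above. In Sfn-positive cells 0 of 9 regulators were 1.5-fold higher and 0 lower, where 3.22% of all genes were higher and 3.58% lower. Without the added 1 CPM, Ovol2 was 1.58-fold higher (1.06 to 2.42), an interval that reaches below 1.5. Esrp1 stood at 63.1 and 82.2 CPM, 1.30-fold higher (1.19 to 1.43), Grhl2 at 22.3 and 28.3 CPM, 1.27-fold higher (1.09 to 1.49), and Grhl3 at 40.6 and 49.5 CPM, 1.22-fold higher (1.09 to 1.37). Rbm47 and Elf3 went the other way there, at 6.63 and 4.70 CPM, a ratio of 0.709 (0.523 to 0.972), and at 18.2 and 13.6 CPM, a ratio of 0.751 (0.627 to 0.904). Of the Sfn-positive cells 35.1% untreated and 16.7% with dTAG-13 were also Zfp42-positive, where both genes are high. Cells positive for Sfn alone numbered 63 untreated and 521 with dTAG-13, and the directions of several regulators were different there. Grhl2 stood at 35.8 and 32.3 CPM, a ratio of 0.904 (0.659 to 1.27), Grhl3 at 69.9 and 66.6 CPM, a ratio of 0.952 (0.760 to 1.21), and Ovol1 at 12.2 and 10.4 CPM, a ratio of 0.855 (0.496 to 1.58). Esrp1 was 1.15-fold (0.956 to 1.40) and Elf3 had a ratio of 0.765 (0.476 to 1.29). Rbm47 came to 0 and 10 UMIs, too few to give a direction, since the lower bound of the ratio is 0.264. The intervals of these 6 genes include 1, so no difference was detectable for them. Grhl1 came to 6 and 15 UMIs, a ratio of 0.294 (0.108 to 0.925), and Ovol2 to 2 and 53 UMIs, a ratio of 3.12 (0.822 to 26.4). Thinned to 5000 UMIs, 3 regulators passed upward and 1 downward, and the share of all genes was not counted at that depth.

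In Zfp42-positive cells 0 of 9 regulators were 1.5-fold higher and 0 lower, against 1.56% and 0.68% of all genes. Esrp1 stood at 24.6 and 29.6 CPM, 1.20-fold higher (1.06 to 1.37), Grhl2 at 19.0 and 17.1 CPM, a ratio of 0.898 (0.770 to 1.05), and Elf3 at 24.0 and 22.2 CPM, a ratio of 0.925 (0.808 to 1.06). In Sox17-positive cells 1 of 7 regulators was higher and 0 lower, against 6.15% and 5.09% of all genes. It was Grhl2, counted in 14 and 51 UMIs, 1.99-fold higher (1.09 to 3.90), an interval that reaches below 1.5. Without the added 1 CPM, Grhl3, at 9 and 26 UMIs, was 1.58-fold higher (0.717 to 3.83). Esrp2, at 10 and 11 UMIs, had a ratio of 0.601 (0.232 to 1.58). Ovol2 stood at 13.9 and 19.2 CPM, 1.38-fold (0.920 to 2.12), and Rbm47 at 15.1 and 17.4 CPM, 1.15-fold (0.770 to 1.75), so no difference was detectable at this depth. Whether these folds differ between gates was not tested, since each rests on 1 library per condition.

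**Figure D3:**
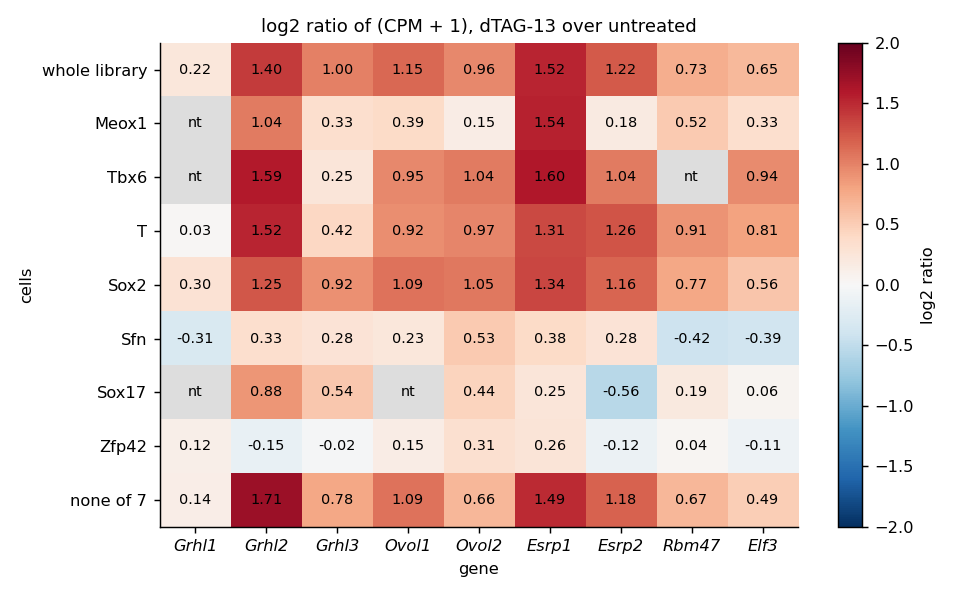
log2 ratio of (CPM + 1), dTAG-13 over untreated, for each regulator (columns) in the whole library and in each group of cells (rows). Red is higher with dTAG-13 and blue lower, and grey squares (nt) had under 10 UMIs. Esrp1 stands at 1.34 in the Sox2 gate and 0.38 in the Sfn gate.

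Zeb2 itself was unevenly detected. Thinned to 5000 UMIs, it was found in 27.1% of untreated (26.0 to 28.2) and 33.5% of dTAG-13 cells (32.4 to 34.6). The shares were 31.1% (28.1 to 34.3) and 38.9% (35.1 to 42.9) of Meox1-positive cells and 11.0% (7.76 to 14.9) and 23.1% (20.9 to 25.5) of Sfn-positive cells. Cells of the Sox17 gate were lowest, with 0 of 110 untreated cells, which allows a share of up to 2.73% by the limit of 3 cells and 3.30% by the Clopper-Pearson interval, and 7.32% with dTAG-13 (3.84 to 12.4), at median depths before thinning of 19609 and 23596 UMIs. Zfp42-positive cells held 6.12% and 7.99%. Without thinning the shares over all cells were 63.6% and 66.2%. In the dTAG-13 library a Zeb2 UMI marks the transcript and says nothing of the protein.

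All 9 regulators were found in a smaller share of Zeb2-positive than of Zeb2-negative cells in both libraries. The intervals lay apart for 4 of them in each. How many of all genes were lower in Zeb2-positive cells was not counted, here or in the groups below. These numbers therefore have no background beside them. The median depths before thinning were 19831 and 20369.5 UMIs in untreated and 19471 and 20907.5 UMIs in dTAG-13 Zeb2-positive and Zeb2-negative cells. Esrp1 was found in 4.39% of 1664 untreated Zeb2-positive cells (3.45 to 5.48) and 7.05% of 4480 Zeb2-negative cells (6.32 to 7.84). With dTAG-13 the shares were 16.4% of 2213 cells (14.9 to 18.0) and 19.4% of 4394 cells (18.3 to 20.6). Rbm47 was found in 1 untreated Zeb2-positive cell, or 0.0601% (0.00152 to 0.334), against 0.915% (0.658 to 1.24), and with dTAG-13 in 0.497% (0.248 to 0.888) against 2.09% (1.69 to 2.56). Elf3 stood at 0.962% (0.551 to 1.56) against 2.57% (2.12 to 3.07) untreated and at 2.26% (1.68 to 2.97) against 4.71% (4.10 to 5.38) with dTAG-13. The fourth gene was Ovol2 in the untreated library, at 0.240% (0.0655 to 0.614) against 0.960% (0.695 to 1.29). In the dTAG-13 library it was Grhl2, at 4.88% (4.02 to 5.86) against 7.65% (6.88 to 8.47). Grhl3 differed least, at 4.21% (3.29 to 5.29) against 4.78% (4.17 to 5.44) untreated and 9.13% (7.96 to 10.4) against 9.56% (8.70 to 10.5) with dTAG-13. Its order depended on depth: at 10000 UMIs per cell, Grhl3 was found in 17.0% (15.7 to 18.3) of Zeb2-positive and 15.1% (13.9 to 16.4) of Zeb2-negative dTAG-13 cells, and 8 of 9 regulators were lower in Zeb2-positive cells in each library. At that depth the Esrp1 intervals with dTAG-13 overlapped, at 29.2% (27.6 to 30.8) of Zeb2-positive and 31.2% (29.6 to 32.8) of Zeb2-negative cells. Those of Grhl1, Ovol1, Ovol2 and Esrp2 with dTAG-13 came to lie apart. Without thinning 8 regulators were lower untreated and 6 with dTAG-13.

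**Figure D4:**
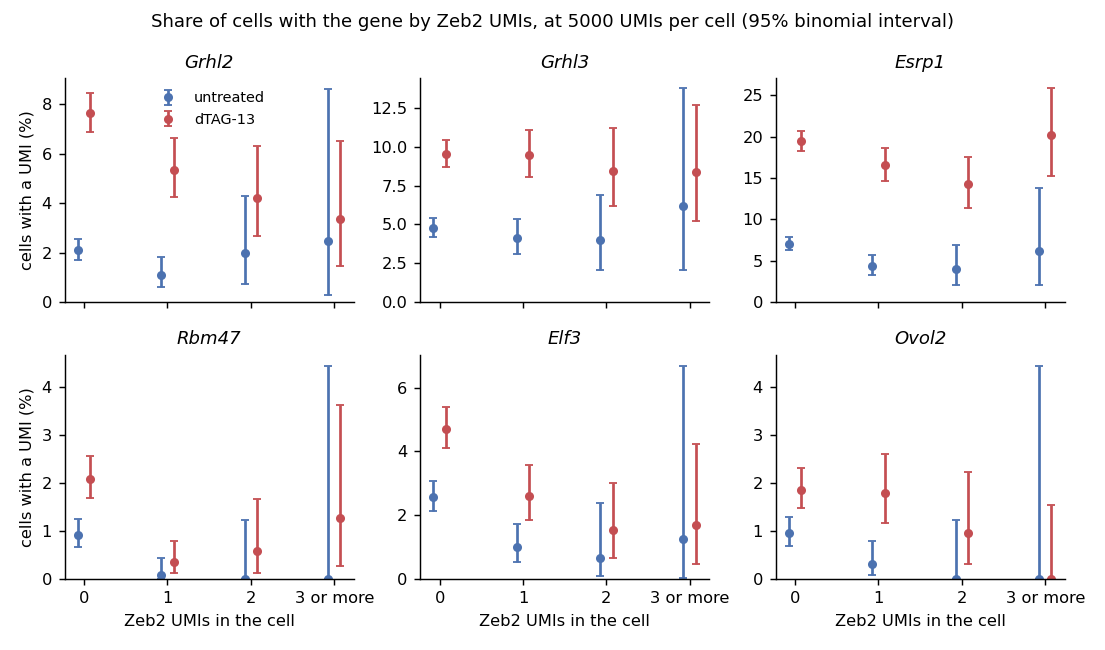
Share of cells (percent) with at least 1 UMI of 6 regulators by the number of Zeb2 UMIs in the cell (3 stands for 3 or more), after thinning to 5000 UMIs per cell, for the untreated (blue) and dTAG-13 (red) library with 95% binomial intervals. Cells without Zeb2 held Elf3 in 2.57% and 4.71%, and the dTAG-13 shares of Grhl3 lie between 8.40% and 9.56%.

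Lineage moved with this association: cells of the Zfp42 and Sox17 gates had low shares of Zeb2 and high shares of Elf3 and Rbm47. Outside the Zfp42 gate, 8 of 9 regulators untreated and 9 of 9 with dTAG-13 were found in a smaller share of Zeb2-positive cells, with intervals apart for 1 and 3. The shares of Esrp1 there were 4.35% (3.41 to 5.46) against 6.52% (5.77 to 7.33) untreated, and 16.4% (14.8 to 18.0) against 20.6% (19.3 to 21.9) with dTAG-13. Within the Zfp42 gate Grhl3 with dTAG-13 went the other way with intervals apart. It was found in 8 of 61 Zeb2-positive cells, or 13.1% (5.84 to 24.2), and 2.85% (1.75 to 4.37) of Zeb2-negative cells. Elf3 was lower there with intervals apart, at 1 of 61 cells, or 1.64% (0.0415 to 8.80), against 12.4% (10.0 to 15.1). In the Sox2 gate 9 of 9 regulators untreated and 5 of 9 with dTAG-13 were lower in Zeb2-positive cells. Intervals were apart for 2 in each library, Rbm47 and Elf3. Rbm47 stood at 0% of 832 cells (0 to 0.442) against 1.35% (0.904 to 1.93) untreated. With dTAG-13 it was 0.388% (0.106 to 0.990) against 2.44% (1.81 to 3.21). Within the Sfn gate intervals were apart for 0 regulators in either library, and Esrp1 stood at 36.7% (31.3 to 42.3) of Zeb2-positive and 34.6% (31.7 to 37.6) of Zeb2-negative dTAG-13 cells. In cells positive for Sox2 alone, Esrp1 with dTAG-13 stood at 15.6% (13 to 18.5) of Zeb2-positive and 21.6% (18.8 to 24.7) of Zeb2-negative cells. Untreated, those shares overlapped, at 5.17% (3.56 to 7.22) and 5.85% (4.57 to 7.36). The differences of Rbm47 and Elf3 were not resolved in these cells. Untreated, Rbm47 was found in 0 of 619 Zeb2-positive and 0 of 1162 Zeb2-negative cells. With dTAG-13 it stood at 0.430% (0.0887 to 1.25) against 0.891% (0.359 to 1.83). Elf3 stood at 1.13% (0.456 to 2.32) against 0.947% (0.474 to 1.69) untreated. With dTAG-13 it was 1.15% (0.496 to 2.25) against 2.16% (1.265 to 3.44). Comparing Zeb2-positive cells alone between the libraries, Esrp1 was in 4.39% untreated and 16.4% with dTAG-13, and Grhl2 in 1.32% (0.830 to 1.99) and 4.88%.

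Several regulators were detected in the same cell in a larger share of dTAG-13 cells. At 5000 UMIs per cell, at least 1 of the 9 was found in 15.0% of untreated (14.1 to 15.9) and 34.7% of dTAG-13 cells (33.5 to 35.8), and at least 2 in 2.23% (1.88 to 2.63) and 9.13% (8.44 to 9.85). In Sfn-positive cells at least 1 was found in 52.4% (46.7 to 57.9) and 63.9% (61.3 to 66.5), and in Meox1-positive cells in 1.88% (1.1 to 2.99) and 6.57% (4.76 to 8.81). Grhl3 and Esrp1 shared 47 untreated cells, where their separate shares would give 18.0 if they were independent, and 227 dTAG-13 cells against 115. Grhl2 and Grhl3 shared 18 cells against 5.36 and 86 against 41.8. Among the pairs with at least 5 cells due under independence, 5 of 5 untreated pairs were found together more often than that. With dTAG-13 it was 14 of 19 pairs. Pairs of other genes were not counted, so these numbers have no background beside them. Grhl3 and Elf3 went the other way with dTAG-13, at 17 cells against 24.2. All cells of a library share their source, so these counts are a description.

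Only Esrp1 was found in at least 5% of thinned cells in both libraries, and its most similar genes were sought among 9747 genes by Pearson's r over the 6144 untreated and 6607 dTAG-13 cells, taking the lower of the library values. They were Epcam, an epithelial adhesion protein, at r of 0.25 and 0.25, Sfn at 0.19 and 0.24, the keratin Krt18 at 0.17 and 0.17, the uroplakin Upk1a at 0.17 and 0.19, and the keratin Krt8 at 0.17 and 0.21. The values are weak, as sparse counts give, and carry no test. Esrp1 with Zeb2 gave -0.05 and -0.03.

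Other genes of the pathway were taken from lists chosen with earlier results of these data known, with ratios on the scale of log2(CPM + 1). Of all 19470 genes with at least 10 UMIs, 2.32% were at least 1.5-fold higher on that scale over whole libraries and 0.832% lower. Of 22 junction, keratin and protease genes, many of them known GRHL2 or OVOL targets, 19 were at least 1.5-fold higher with dTAG-13 over whole libraries and 0 lower, with a median log2 ratio of 1.29. The largest were Cldn7, a tight-junction protein, at 19.0 and 101 CPM (log2 ratio 2.35), the GTPase Rab25 (2.28), the clathrin adaptor Ap1m2 (2.07) and Cldn3 (1.69). Of 10 transcription factors of epithelial-to-mesenchymal transition 0 were higher and 2 lower, Snai1 at 6.98 and 4.02 CPM (-0.67) and Zeb1 at 31.4 and 20.1 CPM (-0.62). Foxc2 (-0.49) and Zeb2 (0.47) stayed within 1.5-fold. Of 6 ETS relatives of Elf3 1 was higher, Elf1 at 13 and 25.9 CPM (0.95), while Elf2 stood at 0.04. The added 1 CPM draws low genes towards no change. Without it the interval of the fold lay wholly above 1.5 for 20 of the 22 junction genes, for 1 of the 10 transcription factors and for 3 of the 6 ETS genes, and wholly below for 1 of the 10 transcription factors, Snai1. The low genes among these, named after their values were seen, were each under 1 CPM in both libraries. They were Snai3 at 2.20-fold (1.62 to 3.01), Ehf at 2.63-fold (1.90 to 3.68) and Elf5 at 2.97-fold (1.84 to 4.97). The share of all genes with an interval wholly beyond 1.5 was not counted.

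No gene of the other lists passed 1.5-fold on that scale, and none had an interval of the fold wholly beyond 1.5 without the added 1 CPM. Of 4 relatives of the Grainyhead and OVOL factors 3 had enough UMIs and 0 passed, with Tfcp2l1, a pluripotency-linked relative, at 8.77 and 12.3 CPM (0.45), Tfcp2 at -0.09 and Ubp1 at -0.04. Of 10 other splicing regulators 0 passed. Mbnl2 stood at 13.3 and 20.3 CPM (0.57, or 1.52-fold, 1.44 to 1.61, without the added 1 CPM), Mbnl1 at 0.21, Srsf1 at -0.18 and Qk at -0.09. Of 10 genes whose splicing ESRP proteins control 0 passed, with Fgfr2 at 7.92 and 5.91 CPM (-0.37), Itga6 at 0.34, Ctnnd1 at 0.23 and Nf2 at 0.16. Counts from the 3′ end give the level of these genes and not their splice forms.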

How the data were processed

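The authors deposited counts of UMIs per gene and cell barcode from 10x Genomics Chromium 3′ v3.1 libraries, whole numbers without normalization, made with Cell Ranger 6.1.2 on mm10 per the submitters' processing notes. The use of strand in counting is not stated in the texts used here. The files hold 7276 untreated and 7873 dTAG-13 barcodes with 158002807 and 176677276 UMIs.

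Barcodes with under 1000 genes or over 10% mitochondrial UMIs were removed (630 and 693). Scrublet within scanpy 1.11.5 marked 6 and 2 doublets by its own threshold, too few to be used, so the highest-scored barcodes were removed, 0.8% per 1000 barcodes (415 and 492 of those left). UMIs were summed over kept cells. Log2 ratios have 1 CPM added, and a gene needed 10 UMIs over both libraries. Intervals are Poisson for CPM, exact conditional for folds and Clopper-Pearson for shares, at 95%. With 1 library per condition there is no test. The steps were tested on simulated data. Alternatives used edgeR 4.0.16 and DESeq2 1.42.0 scaling factors of the counts, other gates, depths and added CPM.

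Members, gates and lists were chosen with earlier results of these data known. Named were all 9 regulators, up to 4 genes per list with the largest absolute log2 ratio among those at 5 CPM or more in 1 library, and for a regulator found in 5% of thinned cells the 5 most similar genes. Gene positions are those of GENCODE M21 (GRCm38), which held 32235 of the 32285 identifiers.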

Additional observations from a re-analysis of the deposited data

Results flagged for a closer look

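Rbm47 and Elf3 had opposite directions in different gates. The log2 ratio of Rbm47, dTAG-13 over untreated, was -0.42 in Sfn-positive cells and 0.52 in Meox1-positive, 0.91 in T-positive and 0.77 in Sox2-positive cells. That of Elf3 was -0.39 in Sfn-positive cells and 0.94 in Tbx6-positive, 0.81 in T-positive and 0.56 in Sox2-positive cells. Each counting interval lay on its own side of 0, but with 1 library per condition the difference between gates was not tested, and the gates share cells. Among cells positive for Sfn alone Rbm47 came to 0 untreated and 10 dTAG-13 UMIs, so its lower level in the Sfn gate is not seen there, and the log2 ratio of Elf3 was -0.36 with an interval of the ratio that includes 1 (0.476 to 1.29).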

How the results depend on the processing

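No paired analysis was possible because each condition has 1 library and the replicate numbers only name it, and for the same reason no library could be left out. Over whole libraries 8 of 9 regulators passed 1.5-fold upward under edgeR and DESeq2 scaling, without doublet removal, at 2500 genes and after thinning, 7 outside the Sfn gate, and 3 with 5 CPM added. With 5 CPM added the numbers were 1 in the Meox1, 2 in the Tbx6, 2 in the T and 3 in the Sox2 gate and 2 in cells below all gates. The share of all genes past 1.5-fold was not counted for these or the following alternatives. After thinning, 1 passed upward in the Tbx6 gate, 3 upward and 1 downward in the Sfn gate and 1 downward in the Zfp42 gate. Without doublet removal 7 passed upward in the Meox1 gate, and 3 upward and 1 downward in the Sox17 gate. With gates at 1 UMI, 4 passed upward in the Meox1, 3 in the Sox17 and 3 in the Zfp42 gate, and with gates at 4 UMIs 2 passed upward and 1 downward in the Sox17 gate. In cells positive for exactly 1 of the 7 markers, 1 of 4 regulators with 10 UMIs passed upward for Meox1, 0 of 1 for Tbx6, 2 upward and 1 downward for Sfn, 0 upward and 1 downward for Sox17 and 1 upward for Zfp42.

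For regulators found in a smaller share of Zeb2-positive cells, the number with intervals apart was 4 in each library. At 2 or more Zeb2 UMIs it was 0 untreated and 2 with dTAG-13, and at 10000 UMIs per cell 7 with dTAG-13. In cells positive for Sox2 alone, chosen after seeing the data, it was 0 untreated and 1 with dTAG-13, and 5 of 9 regulators were lower there with dTAG-13. Of the values past 1.5-fold or with intervals apart, those that changed sign were the log2 ratios of Ovol1 (-0.31, gates at 4 UMIs) and Esrp2 (-0.3, Tbx6 alone) in the Tbx6 gate, each resting on 1 UMI, the log2 odds ratio of Elf3 with Zeb2 in untreated cells positive for Sox2 alone (0.29) and that of Esrp1 with Zeb2 in dTAG-13 cells without thinning (0.08). Values below those limits changed sign too: in cells positive for Sfn alone Grhl2 (-0.14), Grhl3 (-0.07), Ovol1 (-0.21) and, on 10 UMIs, Rbm47 (0.97), in cells positive for T alone Grhl3 (-0.24), and the log2 odds ratio of Grhl3 with Zeb2 in dTAG-13 cells at 10000 UMIs (0.2) and without thinning (0.45), among others. The cause was not tested. Depth limits Grhl1, Ovol1, Ovol2, Esrp2 and Rbm47 most, with 120 to 231 untreated UMIs.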
